A study of Rattus norvegicus with 8 samples.

Results

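Enteric glial cells pretreated with THC-COOH before LPS were compared with enteric glial cells given LPS alone, by RNA sequencing. The members are 4 of the 8 libraries of the series, 2 labelled THC-COOH and 2 labelled LPS, and the comparison covers 7875 of 9848 listed genes, those counted more than 10 times in 1 library or more of the 8. In the THC-COOH + LPS group, cells of the rat line EGC/PK060399egfr were kept for 1 h with 10 nM THC-COOH and then received 1 µg/mL LPS of E. coli 0111:B4 for 24 h. In the LPS group, the same line received 1 µg/mL LPS for 24 h and no compound before it. The other groups, used here for levels and for the common estimate of the spread, were cells given 0.1 µg/mL THC for 1 h and then LPS (THC + LPS) and untreated cells (Control). The duration is that of the sample labels and the methods, and the results text of the study gives a shorter one. All cells belong to 1 established line, no vehicle is named for the cells without a compound, and the sources do not say if separate cultures stand behind the 2 libraries of a group. The p-values therefore rest on a spread between libraries, which may be technical. For each gene this spread is estimated over all 4 groups and drawn toward a prior estimated across genes.

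Enteric glia surround the neurons of the gut wall and respond to bacterial products. LPS, a component of the outer membrane of Gram-negative bacteria, is sensed by the receptor TLR4, which acts through the adaptor MyD88 and the transcription factor NF-κB on genes of inflammation. Activated enteric glia are known for raised S100B and GFAP. THC-COOH is the carboxylated end product of the oxidation of THC in the liver and is not psychoactive. The question put by the design was which transcripts of LPS-treated glia differ when THC-COOH is present beforehand.

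Sequencing used MARS-seq adapted to bulk RNA, a method that counts the 3' ends of polyadenylated RNA. The total counts were 1024351 and 930411 in the THC-COOH + LPS libraries, against 879029 and 545779 in the LPS libraries. LPS library 2 was the shallowest of the 8, where 1 read stood for 1.86 CPM (the count per 1000000 counts of the library, scaled with the TMM factors of edgeR). The 2 libraries of each group differed by more than sampling noise, with a chi-square per degree of freedom of 1.77 between the THC-COOH + LPS libraries and 1.603 between the LPS libraries, and each was counted as a sample. The count table holds Ensembl gene identifiers without symbols. The reference used here, 47357 rat genes of the assembly GRCr8, holds no Ensembl identifiers, so none could be paired with a symbol. Glial markers, inflammatory genes and the genes that the study names were therefore not looked up. The 2 higher and 2 lower genes with the smallest p among those past 1.6-fold whose groups lay apart are given by identifier, and the others by their values and counts.

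No gene passed the thresholds of the study's methods, an adjusted p under 0.05 and a fold change above 1.6. The study itself reports differentially expressed genes in both directions for this comparison. Its results text gives the same limits for fold and p, without saying that the p was adjusted. edgeR called 0 of 7875 genes (0%) between THC-COOH + LPS and LPS cells, and its smallest adjusted p (Benjamini-Hochberg) was 0.122. DESeq2 and limma voom called 0 genes as well. An unadjusted p under 0.05 in edgeR was reached by 528 genes (6.7%), 286 of them higher (3.63%) and 242 lower (3.07%) in THC-COOH + LPS cells, where 394 are expected if no gene differs. For an unadjusted p under 0.01 the numbers were 136 observed and 78.8 expected, and for 0.001 they were 21 and 7.88. With the minimum fold as well, 227 genes (2.88%) remained, 132 higher (1.68%) and 95 lower (1.21%) in THC-COOH + LPS cells. With DESeq2 these were 51 genes, 32 higher and 19 lower. The split between the directions turned without THC-COOH + LPS library 2, with 112 higher and 135 lower genes of 247, and was 153 and 153 without THC-COOH + LPS library 1. No correction for the number of genes is made in these counts. The adjusted p was sensitive to the genes and libraries in the fit, and edgeR called 9 genes when every gene with a count was fitted. Of these 9, 6 had groups that lay apart. The others did not, with raw counts in LPS libraries 1 and 2 of 262 and 694, 28 and 0, and 49 and 0. Fits that left out an LPS library, or THC-COOH + LPS library 1, also called genes, each with a group of 1 library. The genes called without LPS library 1 differed from those called without LPS library 2. With the replicate number as a block edgeR called 8.

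**Figure D1:**
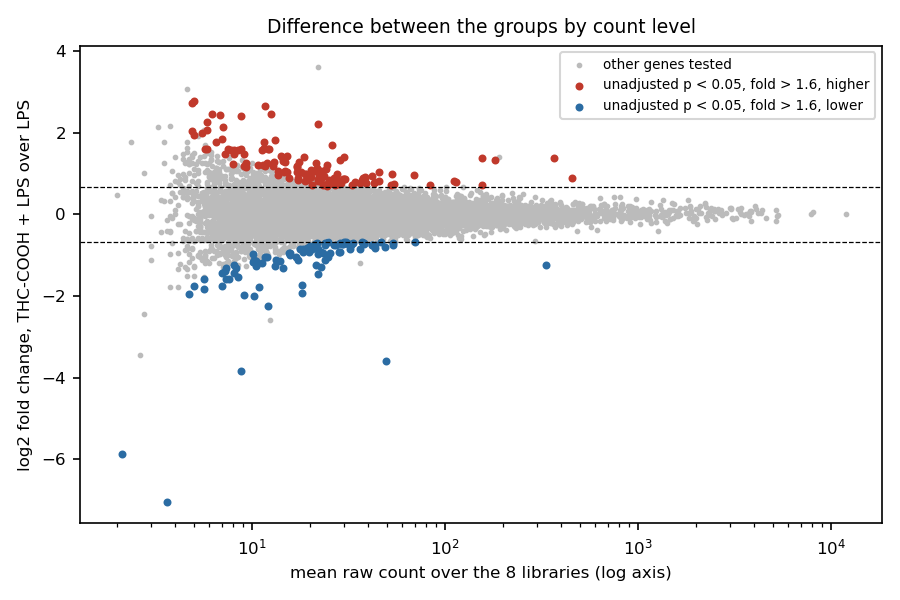
Log2 fold change of THC-COOH + LPS over LPS (vertical axis) against the mean raw count over the 8 libraries (horizontal log axis) for the 7875 genes tested, with 1 point per gene. Dashed lines mark 1.6-fold, and red and blue points are the 132 higher and 95 lower genes with an unadjusted p under 0.05; nearly all of these lie at mean counts under 50.

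The gene with the smallest p, ENSRNOG00000010807, was higher after THC-COOH. It had 254 and 359 CPM in the THC-COOH + LPS libraries, against 172 and 44.5 CPM in the LPS libraries (raw counts 258 and 327, against 151 and 24). The libraries of the groups did not overlap, but LPS library 2 lay far below LPS library 1. Its mean was 306 ± 74.2 CPM in THC-COOH + LPS cells and 108 ± 89.9 CPM in LPS cells (SD, n = 2 each), a log2 fold change of 1.37 (95% interval 0.81 to 1.94, standard error 0.27, edgeR adjusted p = 0.122). It was 2.78 without LPS library 1 and 0.84 without LPS library 2, so the size of the difference depended on which LPS library was kept. Its level was 46.3 ± 12.9 CPM in THC + LPS cells and 253 ± 44.1 CPM in Control cells (SD, n = 2 each). Relative to Control cells its log2 fold change in THC-COOH + LPS cells was 0.27 (95% interval −0.24 to 0.78, edgeR adjusted p = 0.823).

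ENSRNOG00000036318 was the other higher gene named by the rule, and it was low everywhere except after THC-COOH. The THC-COOH + LPS libraries had 31.5 and 38.4 CPM, against 7.96 and 3.71 CPM in the LPS libraries (raw counts 32 and 35, against 7 and 2). The THC + LPS libraries had 7.04 and 6.92 CPM and the Control libraries 9.39 and 2.60 CPM. Both THC-COOH + LPS libraries thus lay above each of the other 6 libraries. The log2 fold change relative to LPS was 2.44 (95% interval 1.40 to 3.48, standard error 0.50, edgeR adjusted p = 0.122). Relative to Control cells the gene passed both thresholds, with a log2 fold change of 2.52 (edgeR standard error 0.50, adjusted p = 0.0274), 1 of 6 genes (0.0762%) called in that comparison. Between THC-COOH + LPS and THC + LPS cells, whose doses differ, 18 genes (0.229%) were called, this gene and ENSRNOG00000010807 among them. Both comparisons use the same THC-COOH + LPS libraries by which these genes were chosen, so they are no separate support. The counts in LPS cells are few, and over 15 other settings the log2 fold change relative to LPS ran from 2.12 to 3.19.

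ENSRNOG00000028747 had the smallest p of the lower genes past 1.6-fold. It had 5.90 and 4.39 CPM in the THC-COOH + LPS libraries, against 21.6 and 29.7 CPM in the LPS libraries (raw counts 6 and 4, against 19 and 16). The groups lay apart, and the 2 libraries of a group differed much less than the groups did. Its log2 fold change was −2.24 (95% interval −3.27 to −1.22, standard error 0.50, edgeR adjusted p = 0.170). Control cells had 23.8 ± 0.544 CPM of it, near the LPS level, and THC + LPS cells had 7.36 ± 1.34 CPM (SD, n = 2 each). Each Control library had 18 raw counts, and counting error alone is larger than this SD. Relative to Control cells its log2 fold change after THC-COOH was −2.17 (edgeR adjusted p = 0.0933).

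ENSRNOG00000028021 was also lower after THC-COOH. It had 14.7 and 14.3 CPM in the THC-COOH + LPS libraries, against 56.8 and 37.1 CPM in the LPS libraries (raw counts 15 and 13, against 50 and 20). The log2 fold change was −1.73 (95% interval −2.52 to −0.93, standard error 0.38, edgeR adjusted p = 0.170). It had 10.9 and 26.3 CPM in the THC + LPS libraries, and 8.05 and 7.79 CPM in the Control libraries, the lowest group. In LPS cells relative to Control cells this gene was 1 of 3 genes (0.0381%) called (log2 fold change 2.59, edgeR adjusted p = 0.0116). The difference with THC-COOH and that change with LPS rest on the same LPS libraries. After THC-COOH it stood 0.86 above Control on the log2 scale (95% interval −0.25 to 1.97), an interval that includes no difference.

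**Figure D2:**
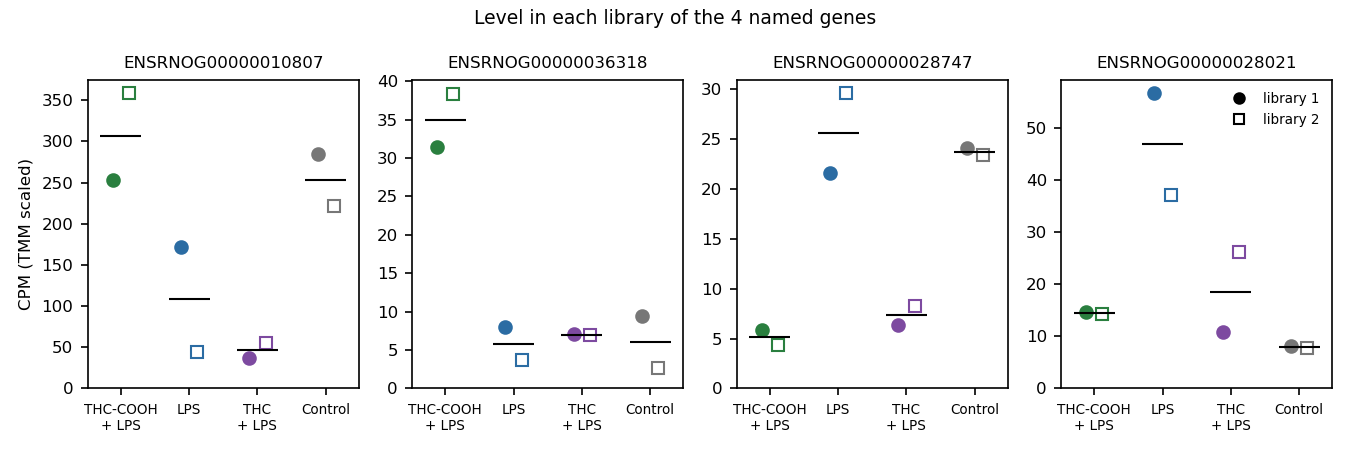
Level in CPM (vertical axes, from 0, a scale per panel) of the 4 named genes in the 2 libraries of each group; filled circles are library 1, open squares library 2 and lines the group mean. ENSRNOG00000036318 stood at 31.5 and 38.4 CPM in THC-COOH + LPS and at most 9.39 CPM in any other library, while the LPS libraries of ENSRNOG00000010807 were 172 and 44.5 CPM.

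The 10 genes with the smallest p in each direction, among those past 1.6-fold whose groups lay apart, had median log2 fold changes of 1.33 (0.72 to 2.44) for the higher and −1.60 (−3.59 to −0.75) for the lower ones. Their adjusted p ran from 0.122 to 0.382 in the higher and from 0.170 to 0.479 in the lower genes (edgeR). The higher ones were counted more deeply, with a median of the mean raw count of 76.6, against 21.7 for the lower ones. The gap between the 2 LPS libraries exceeded 1.6-fold in 5 of the 10 higher and 2 of the 10 lower genes. One of the lower genes had 10.8 and 6.58 CPM in the THC-COOH + LPS libraries, against 13.6 and 232 CPM in the LPS libraries, so that its difference rested on LPS library 2. By contrast, another of them had 12.8 and 14.3 CPM after THC-COOH, against 35.2 and 40.8 CPM with LPS, with close libraries in both groups.

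**Figure D3:**
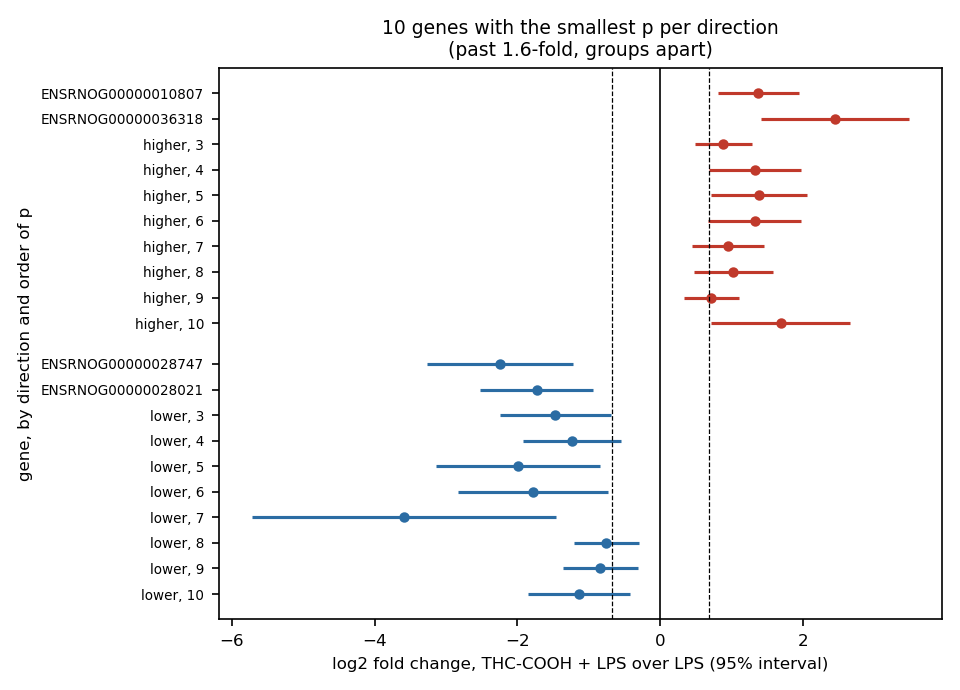
Log2 fold change of THC-COOH + LPS over LPS (points) with its 95% interval (lines) for the 10 higher and 10 lower genes with the smallest p among those past 1.6-fold whose groups lay apart, in order of p from the top. Dashed lines mark 1.6-fold; no interval includes 0, since the genes were chosen for a small unadjusted p, and no adjusted p was below 0.122.

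Of the 21 genes with an unadjusted p under 0.001, 15 were past 1.6-fold and 6 were not. Some of the 15 had groups that did not lie apart. Their CPM in LPS libraries 1 and 2 were 31.8 and 0, 55.7 and 0, and 298 and 1288. The 6 were well counted, with a mean raw count of at least 124, and 4 were higher and 2 lower, with log2 fold changes from −0.53 to 0.66. One of the 4 higher ones had 1011 and 1060 CPM in the THC-COOH + LPS libraries, against 758 and 783 CPM in the LPS libraries. The difference was small but larger than the spread within each group, with a log2 fold change of 0.43 (edgeR standard error 0.09, adjusted p = 0.122). A more abundant gene had 2296 and 2460 CPM, against 1839 and 1917 CPM, with a log2 fold change of 0.34 (edgeR standard error 0.07, adjusted p = 0.122). One of the 2 lower ones had 754 and 683 CPM, against 884 and 993 CPM, a log2 fold change of −0.38 (edgeR standard error 0.09, adjusted p = 0.277).

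The libraries of the groups did not overlap in 2855 of the 7875 genes (36.3%), 1440 higher (18.3%) and 1415 lower (18%) in THC-COOH + LPS cells. With 2 libraries against 2, the smallest p of an exact permutation test (two-sided) is 0.333, so the absence of overlap alone is no test. Genes chosen by p and fold on these same libraries tend to lie apart for that reason. Among the 227 genes with an unadjusted p under 0.05 and 1.6-fold, 126 of the 132 higher and 87 of the 95 lower genes lay apart. Their median log2 fold changes were 1.05 and −0.95. They were mostly low in counts, with a median of the mean raw count of 19.8 for the higher and 20.1 for the lower genes, against 36 over all genes tested. The 2 LPS libraries differed by over 1.6-fold in 57 of the 132 higher genes (43.2%) and in 23 of the 95 lower genes (24.2%), against 18.1% of all genes tested. For the 2 THC-COOH + LPS libraries these shares were 24.2% and 25.3%, against 14% of all genes tested. The shares over all genes tested are not matched to these sets in count level. At mean counts of 10 to 50, the median absolute log2 difference was 0.35 between the LPS libraries and 0.32 between the THC-COOH + LPS libraries. Over all genes tested these were 0.28 and 0.24. When LPS library 2 was left out, 111 of the 132 higher genes were still past 1.6-fold and 55 kept an unadjusted p under 0.05 with it. For the 95 lower genes these numbers were 75 and 44.

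Genes with a mean raw count of at least 50 give the firmest values. Of 3131 such genes, 12 were higher and 4 lower past 1.6-fold with an unadjusted p under 0.05. The 2 LPS libraries lay over 1.6-fold apart in 7 of the 12 higher genes, against 94 of all 3131 (3%), and LPS library 2 was the lower one in 10 of the 12, against 47.8% of all 3131. In 1 of the 12, the THC-COOH + LPS libraries had 284 and 323 CPM, against 191 and 26 CPM in the LPS libraries. In another, they had 560 and 932 CPM, against 435 and 106 CPM. Both THC-COOH + LPS libraries were above both LPS libraries in these genes, and LPS library 2 was by far the lowest of the 4. Each of the 12 had both THC-COOH + LPS libraries above both LPS libraries. Leaving out a library could therefore not turn their direction, and 12 of the 12 kept it. Without LPS library 2, 5 of the 12 were past 1.6-fold, and the median log2 fold change was 0.68. Without LPS library 1 it was 1.69, and 12 of the 12 were past 1.6-fold. Without THC-COOH + LPS library 2 it was 0.72, and 7 of the 12 were past 1.6-fold. Of the 4 lower genes, 3 kept their direction and 1 was past 1.6-fold without LPS library 2, while 4 kept it and 2 were past 1.6-fold without THC-COOH + LPS library 2. One of these lower genes had 292 and 359 CPM after THC-COOH, against 298 and 1288 CPM with LPS, and here LPS library 2 was the high one. A higher gene with close libraries had 121 and 91 CPM after THC-COOH, against 53.4 and 57.5 CPM with LPS, a log2 fold change of 0.95 (edgeR standard error 0.24, adjusted p = 0.330). Whether the depth of LPS library 2 has a part in these values was not tested.

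**Figure D4:**
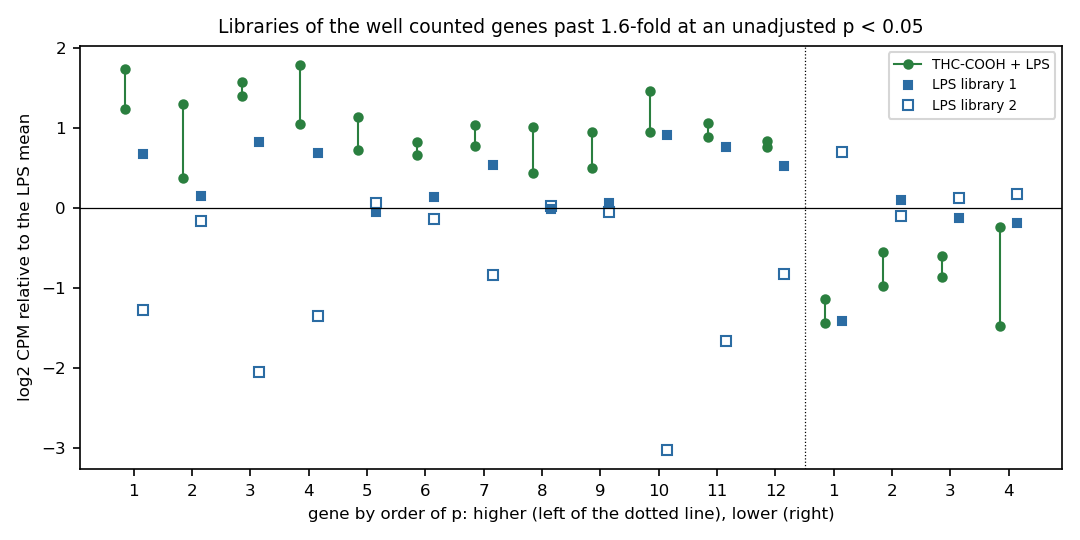
Log2 CPM of each library relative to the mean of the 2 LPS libraries (vertical axis) for the 12 higher and 4 lower genes whose mean count was 50 or more, with an unadjusted p under 0.05 and over 1.6-fold; green points joined by a line are the THC-COOH + LPS libraries, filled and open blue squares LPS library 1 and 2. In 7 of the 12 higher genes the 2 LPS libraries lie over 1.6-fold apart, and LPS library 2 is the lower one in 10 of the 12.

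The most abundant transcripts differed little. The 100 most abundant genes held 29.8% of all counts, and their log2 fold changes lay between −0.23 and 0.35, with a median absolute value of 0.09. For 93 of them an interval could be read from the test, and in 93 of 93 it lay within 1.6-fold in either direction. An unadjusted p under 0.05 was found for 26 of the 100, against 6.7% of all genes tested, and the smallest adjusted p among them was 0.122 (edgeR). Among the 500 most abundant genes, with 54.5% of the counts, 3 were past 1.6-fold. At the other end, 4 of the genes tested had no count in either THC-COOH + LPS library. The one with the most counts in LPS had 28 in LPS library 1, 0 in LPS library 2 and no more than 1 elsewhere. Only 2 genes had no count in either LPS library, with at most 3 counts in the THC-COOH + LPS libraries together.

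How far a difference can be limited depended on the count level. Over all genes tested, the median absolute log2 fold change was 0.20. Single libraries differed by a median absolute log2 value of 0.24 between the 2 THC-COOH + LPS libraries and 0.28 between the 2 LPS libraries. The 4 pairs of a THC-COOH + LPS and an LPS library differed by 0.24 to 0.30, about the same range. Among genes with a mean count of 200 or more, these values were 0.10 and 0.10 within the groups and 0.10 to 0.13 across them. The 95% interval of the difference lay within 1.6-fold in either direction for 2864 of 7638 genes (37.5%). Without LPS library 1 the number was 1708. With both LPS libraries, the interval lay within 1.6-fold for 746 of 760 genes (98.2%) at a mean count of 200 or more, for 1751 of 2226 (78.7%) at 50 to 200, for 367 of 3635 (10.1%) at 10 to 50 and for 0 of 1017 under 10. For most genes below a mean count of 50, a 1.6-fold difference between THC-COOH + LPS and LPS cells was therefore not excluded by these libraries. Across 3131 genes whose mean count was 50 or more, log2 CPM correlated with a Pearson r of 0.98 between the THC-COOH + LPS libraries and 0.97 between the LPS libraries, and from 0.97 to 0.98 across the groups, a description over genes, which share their libraries' depth.

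**Figure D5:**
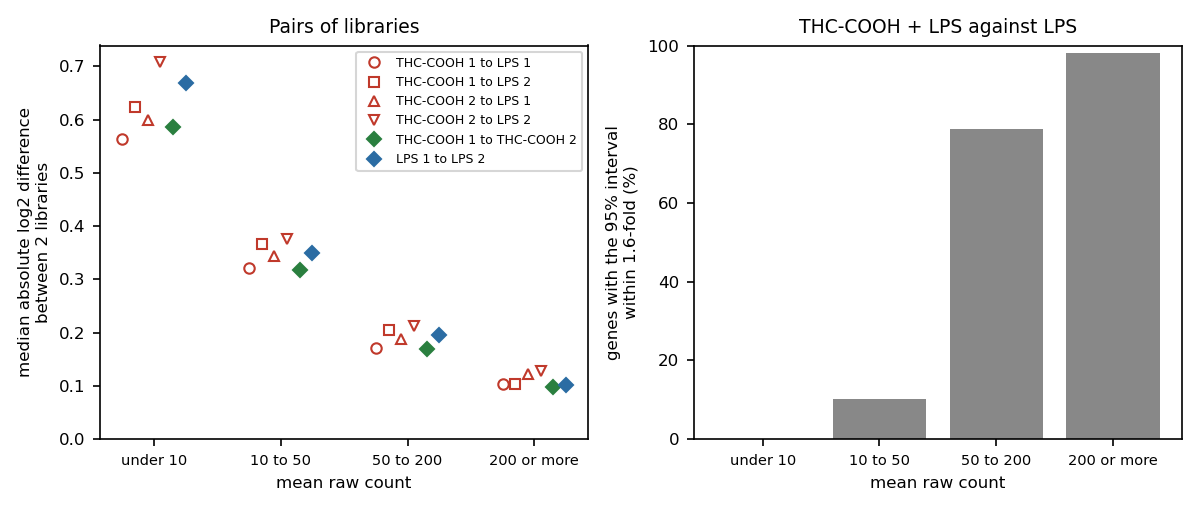
Left, the median absolute log2 difference between 2 libraries (CPM with 0.5 added) by mean raw count, for the 4 pairs across the groups (red) and the pair within THC-COOH + LPS (green) or LPS (blue). Right, the share of genes whose 95% interval of the THC-COOH + LPS over LPS difference lies within 1.6-fold, from 0 of 1017 genes under a mean count of 10 to 98.2% at 200 or more.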

How the data were processed

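Per the labels, the authors used bcl2fastq 2.20.0.422 and cutadapt, aligned to Rnor_6.0 with STAR 2.7.3a, and counted with HTSeq. One deposited table holds raw counts by Ensembl gene. The other deposited table is a signal: those counts over 1 factor per library, which differed from DESeq2 size factors of the raw counts by at most 7.27e-05%. The raw counts were analysed. For the annotation release and molecular identifiers, the processing is not given in the sources used here.

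All 8 libraries were fitted with edgeR 4.0.16 (R 4.3.3): TMM factors, quasi-likelihood (robust option off), a coefficient for each group, 4 residual degrees of freedom. Tests and intervals used the total degrees of freedom, with a median of 23.7. Of these, 19.7 come from a prior estimated across genes, so the intervals are narrower than 4 would give. Standard errors were taken as the absolute log2 fold change over the square root of F. The 237 genes with an absolute log2 fold change under 0.01 have no interval. A DEG has an adjusted p under 0.05 and a fold change above 1.6, as in the study's methods. Levels are TMM-scaled CPM.

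Named genes are the 2 of each direction with the smallest p among those with an unadjusted p under 0.05, over 1.6-fold and with groups apart, leaving out genes where 1 library held over 90% of the summed CPM with 50 counts or more. The comparison, rule and lists were chosen with earlier results of these data known. The 29 gene lists (660 entries) were not run, since identifiers had no symbols. Alternatives were DESeq2 1.42.0 and limma voom (limma 3.58.1), DESeq2 size factors, the 7219 genes of filterByExpr, the 9839 genes with any count, the 4 libraries alone, the replicate block, no minimum fold, each library left out, and, chosen after seeing the data, only genes whose mean count was 50 or more.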

Additional observations from a re-analysis of the deposited data

Results flagged for a closer look

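The changes after THC-COOH and after THC, each relative to the same LPS libraries, were tested against each other, and 18 of 7875 genes (0.229%) passed both thresholds (edgeR), 15 higher and 3 lower in THC-COOH + LPS cells. The doses were 10 nM THC-COOH and 0.1 µg/mL THC, so compound and dose cannot be told apart. Of the 10 higher and 10 lower genes with the smallest p between THC-COOH + LPS and LPS cells, among those past 1.6-fold whose groups lay apart, 5 were among the 18. Both comparisons use the same THC-COOH + LPS libraries, which favours such an overlap, so it is no separate support.

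ENSRNOG00000010807 had 254 and 359 CPM in the THC-COOH + LPS libraries and 37.1 and 55.4 CPM in the THC + LPS libraries, a log2 fold change of 2.80 (edgeR standard error 0.30, adjusted p = 8.93e-06). ENSRNOG00000036318 had 31.5 and 38.4 CPM in the THC-COOH + LPS libraries and 7.04 and 6.92 CPM in the THC + LPS libraries, a log2 fold change of 2.29 (edgeR standard error 0.44, adjusted p = 0.0149). For the 2 lower genes this difference did not pass: it was −0.44 for ENSRNOG00000028747 (95% interval −1.64 to 0.76) and −0.18 for ENSRNOG00000028021 (95% interval −1.08 to 0.71).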

How the results depend on the processing

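The 0 DEGs between THC-COOH + LPS and LPS cells became 9 (5 higher and 4 lower) with every gene that had a count. Leaving out an LPS library also gave calls, which rest on the other LPS library alone. With the replicate block edgeR called 8 genes, ENSRNOG00000010807 at 1.40 (adjusted p = 0.0105), ENSRNOG00000036318 at 2.47 (adjusted p = 0.0419) and ENSRNOG00000028021 at −1.74 (adjusted p = 0.0471) among them. Whether the numbers pair the libraries is not stated in the sources, and 2 libraries a group are too few to decide it. Residual correlations between same-numbered libraries ran from −0.09 to 0.10. There is 1 value for each of the 6 pairs of groups, since the 2 residuals of a group mirror each other. These 3 genes were also called with every gene that had a count. With the 4 libraries alone their adjusted p was 0.184, 0.173 and 0.173 (edgeR). With limma voom it was 0.0544, 0.332 and 0.184, in the same order. DESeq2 and limma voom called 0 genes. No direction of the 4 named genes was reversed under any alternative run. They were chosen with groups that lay apart, so leaving out a library could hardly reverse them. The 227 genes with an unadjusted p under 0.05 and 1.6-fold were 51 with DESeq2, 528 without a minimum fold and 14 with only genes of a mean count of at least 50, where fewer genes enter, and leaving out a library gave 216 to 323. The share of higher genes in them moved from 132 of 227 to 153 of 306 without THC-COOH + LPS library 1, 112 of 247 without THC-COOH + LPS library 2, and 158 of 248 without LPS library 2. The number of intervals within 1.6-fold, 2864, was 1708 without LPS library 1 and up to 2873 as libraries were left out, and 2451 to 2914 under the other alternatives. The median absolute log2 fold change ran from 0.20 to 0.26 as libraries were left out. Other causes were not tested. The intervals lay within 1.6-fold least often at low counts: under a mean count of 10, 0 of 1017 did.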
